A study of Homo sapiens with 5 samples.

Results

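Genes that drive cells into and through mitosis were examined in a human leukemia cell line exposed to SB216763, a small-molecule inhibitor of the serine/threonine kinase GSK-3. The set was a list of 47 genes, and a gene was measured where the array annotation gave a probe that named this gene alone. That held for 46 of the 47, out of 18417 genes measured in all. The 1 gene left out, CENPA, was named only by a probe shared with SLC35F6. For BIRC5, the 1 gene with more than 1 such probe, the brighter probe on average stood for the gene.

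The cells were of the line labelled RS4.11 (RS4;11), a human acute leukemia line that carries an MLL rearrangement, and all arrays carry that label. Controls had received the solvent DMSO (2 arrays) and treated cells had received SB216763 at 10 uM (3 arrays), in both cases for 20 h. Total RNA was measured on whole-transcript arrays, and the values are log2 expression values. The number of arrays limits the precision. The labels do not say whether arrays of a group had separate cultures behind them, and the p-values therefore cover no more than the spread seen here, part or all of which may be technical. Each difference is the SB216763 mean (n = 3) less the control mean (n = 2), in log2 units. A gene is said to have fallen or risen where limma gave a p-value under 0.05 after Benjamini-Hochberg adjustment over all genes.

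The array medians lay between 6.77 and 6.84, and the background of the arrays, taken from olfactory receptor genes that are silent in most tissues, between 5.98 and 6.19. All 46 mitotic genes were above background on all 5 arrays. RS4;11 is known as a line of B cell precursors, and their markers were checked. Of 10 measured B cell precursor markers, 3 were above background on all arrays. These were IGLL1, at 7.80 to 8.48, and PAX5 and CD79B, closer to background at 6.55 to 6.87. CD79A was above background on 4 arrays. DNTT, VPREB1, CD22, CD24 and RAG1 were above it on no array. The lack of signal from DNTT, VPREB1, CD22, CD24 and RAG1 goes against the labelled line, while the signal of IGLL1, PAX5 and CD79B goes with it. Whether the label is right was not tested. All 11 measured myeloid markers were above background on all arrays. They ranged from MPO, CD14, S100A8 and S100A9, close to background at 6.10 to 6.90, up to LYZ at 11.86 to 12.78. Of the 11, LYZ, CD68 and CSF3R rose by 0.78, 1.00 and 1.23. The mean over the 11 was 8.28 to 8.29 on the control arrays and 8.49 to 8.63 on the SB216763 arrays. The other 8 did not pass, 5 of the 11 differences were negative, down to -0.23 for MPO, and the median difference was 0.11. The B cell precursor marker BLNK rose too, by 1.29, and was above background on the SB216763 arrays but not on the control arrays. The part of these markers in the differences described here was not tested.

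Mitosis is started by cyclin-dependent kinase 1 bound to cyclins A and B, which phosphatases of the CDC25 family switch on. Aurora, Polo-like and NEK kinases then build the spindle, condensins compact the chromosomes, and kinetochores attach them to microtubules. Until all are attached, the spindle assembly checkpoint holds back CDC20, the activator of the anaphase-promoting complex (APC/C), a ubiquitin ligase whose targets include cyclin B and securin. Most of these genes are transcribed in late S and G2 phase, under the transcription factors FOXM1 and B-MYB and the MuvB complex. MuvB binds a promoter element called the cell cycle genes homology region (CHR), and the factor NF-Y binds the CCAAT box.

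Of the 46 mitotic genes, 22 fell and 0 rose with SB216763. Among all genes tested 5.92% fell and 7.21% rose. The genes that rose were 54.9% of those that changed, and 40.6% after each array was centred on its median. The fallen genes included the checkpoint protein gene MAD2L1 (1.81-fold), cyclin A2 (CCNA2, 1.77-fold), the kinetochore subunit SPC24 (1.69-fold) and the checkpoint protein gene BUB1B (1.62-fold). PLK1 and AURKB, which encode 2 of the main mitotic kinases, did not pass the test. The median difference over the 46 genes was -0.36, beside 0.00 over all genes. All 3 SB216763 arrays were below both control arrays for 43 of the 46 genes, a pattern found for 19.9% of all genes, and above both for CKAP2, a pattern found for 21.6%. The other two, CDC25B and CENPE, had overlapping groups. In RNA of whole cultures, fewer cells in G2 and mitosis and less RNA per such cell cannot be told apart.

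**Figure D1:**
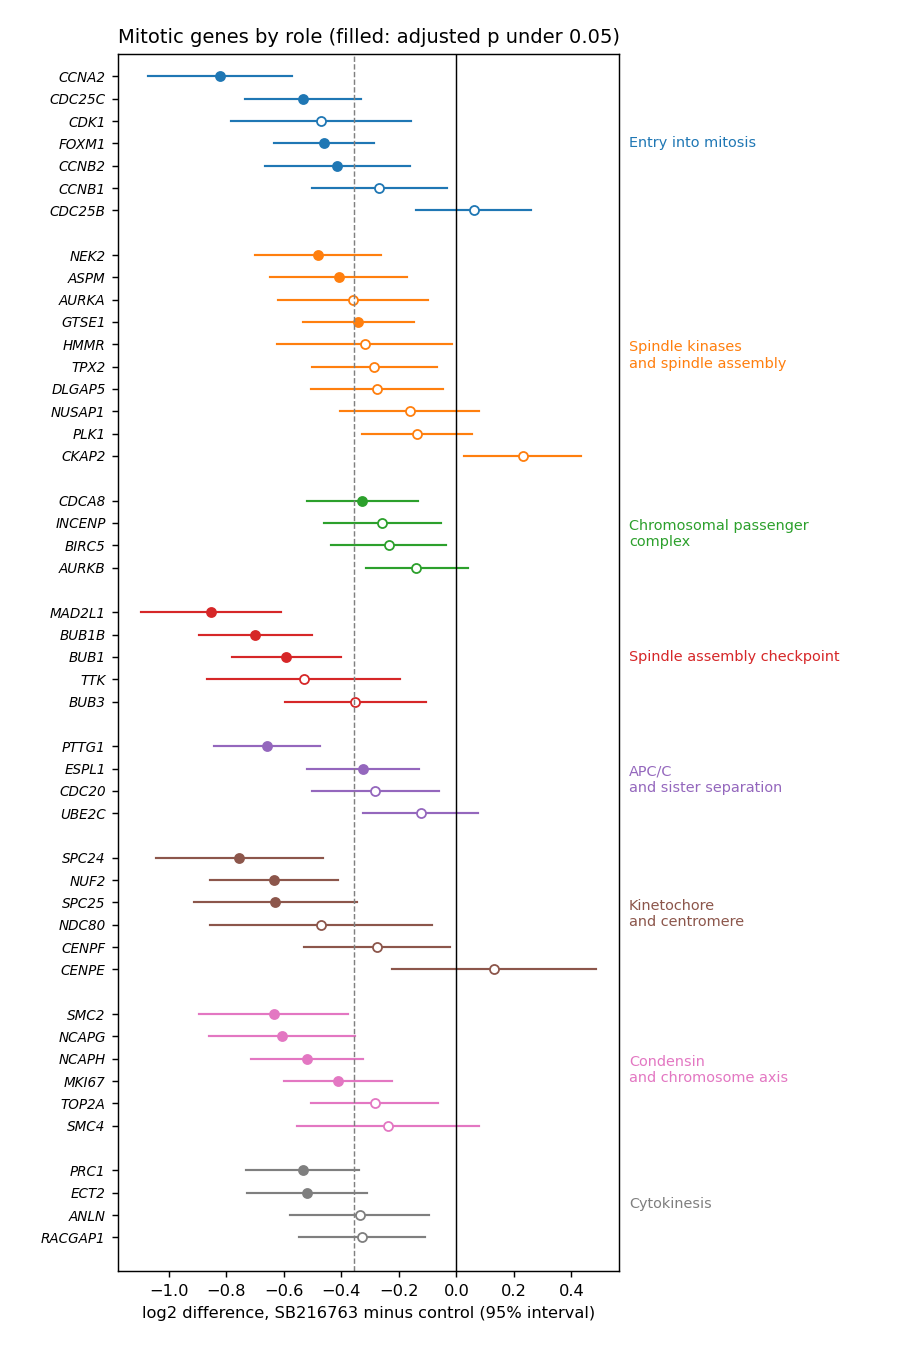
Log2 difference, SB216763 minus control, on the x axis for each of the 46 mitotic genes on the y axis, ordered by role. Bars are 95% intervals of the moderated fit, filled circles have an adjusted p under 0.05, the solid line is no difference and the dashed line the median of the 46 genes, -0.36. The differences run from -0.85 for MAD2L1 to 0.23 for CKAP2, and 3 genes lie right of the solid line.

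Leaving out a control array ended all of these calls. When control replicate 1 was left out, limma called 0 of the 46 genes, the lowest adjusted p being 0.0728, and 32 were lower at an unadjusted p under 0.05, beside 10.3% of all genes. Without control replicate 2 it again called 0, with a lowest adjusted p of 0.0609, and 20 were lower at that unadjusted level, beside 8.98% of all genes. The difference was negative for 43 of the 46 genes in either case.

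The treated arrays were not alike. Measured from the mean of the control arrays, the median over the 46 genes was -0.34 on SB216763 replicate 1, -0.50 on SB216763 replicate 2 and -0.27 on SB216763 replicate 3, and it was -0.04 and 0.04 on the control arrays. Over all genes these medians lay between -0.02 and 0.04. SB216763 replicate 2 was the lowest of the treated arrays for 37 of the 46 genes and SB216763 replicate 3 the highest for 35. Without replicate 2 the median over the 46 genes was -0.31 and 21 of them fell, beside 1179 of all 18417 genes.

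**Figure D2:**
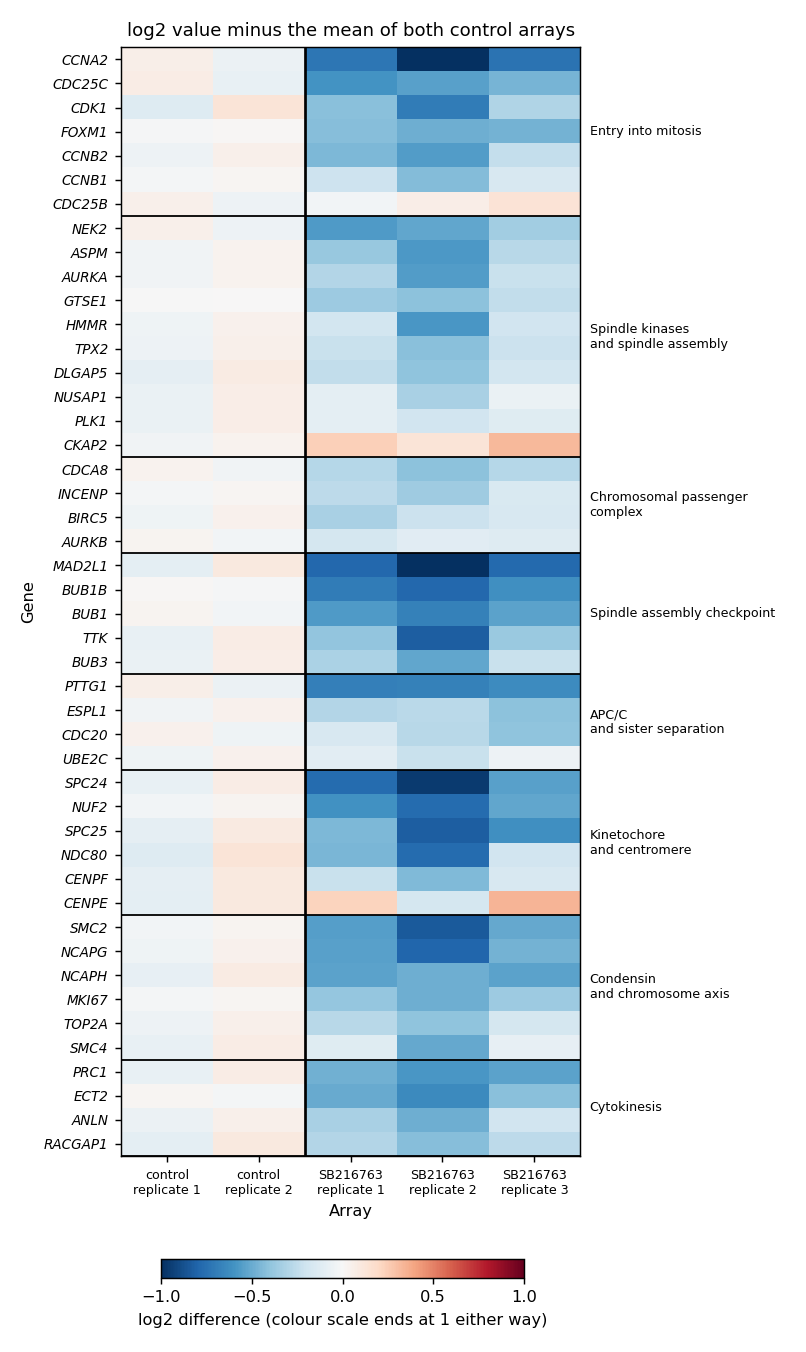
Log2 value of each of the 46 mitotic genes (rows, ordered by role) on each of the 5 arrays (columns), minus the mean of both control arrays for that gene. Blue is lower and red higher; the column of SB216763 replicate 2 is the darkest, with a median of -0.50 against -0.34 and -0.27 in the columns beside it.

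Promoters were read to see which of the elements known from late cell cycle genes these genes share. RefSeq promoters (GRCh38.p14), each of 250 bases before to 50 bases after a transcription start, were found for 39 of the 47 genes, 51 promoters in all; FOXM1, AURKA, TPX2, BIRC5, BUB3, TTK, UBE2C and RACGAP1 are only named. A CHR was counted as TTTGAA or TTCGAA and a CCAAT box as CCAAT, each on either strand. TTCGAA reads the same on both strands and was counted once, and boxes on opposite strands may overlap, as in PTTG1. The stretches shown are those of the fallen genes CCNB2, CDC25C, BUB1B and NCAPG, of PLK1, which carries both elements and did not pass the test, and of CCNB1 and CKAP2, which carry no CHR in these letters. Each is the 125 bases before the start, 5′ to 3′ on the gene's own strand, with the CHR and CCAAT letters of either strand in capitals. CDC25C has 4 promoters, and the one shown was chosen for having the most capitals in this stretch. In another of them the CHR began 44 bases after the start.
CCNB2, chr15:59105021-59105145, plus strand: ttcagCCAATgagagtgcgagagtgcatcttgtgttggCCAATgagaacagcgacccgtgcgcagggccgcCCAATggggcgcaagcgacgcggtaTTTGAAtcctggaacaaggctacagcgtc
CDC25C, chr5:138331805-138331929, minus strand: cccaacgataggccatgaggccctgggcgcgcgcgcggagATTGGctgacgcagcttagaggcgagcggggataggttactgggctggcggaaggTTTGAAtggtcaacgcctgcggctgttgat
BUB1B, chr15:40160944-40161068, plus strand: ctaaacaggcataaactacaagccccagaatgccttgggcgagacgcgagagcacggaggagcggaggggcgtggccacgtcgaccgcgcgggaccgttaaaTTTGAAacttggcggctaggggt
NCAPG, chr4:17810854-17810978, plus strand: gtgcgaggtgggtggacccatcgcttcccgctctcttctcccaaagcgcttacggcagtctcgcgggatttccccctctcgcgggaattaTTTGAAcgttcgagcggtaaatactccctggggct
PLK1, chr16:23678764-23678888, plus strand: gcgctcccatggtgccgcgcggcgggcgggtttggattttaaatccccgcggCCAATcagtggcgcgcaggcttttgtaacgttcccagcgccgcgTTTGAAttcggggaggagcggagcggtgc
CCNB1, chr5:69167025-69167149, plus strand: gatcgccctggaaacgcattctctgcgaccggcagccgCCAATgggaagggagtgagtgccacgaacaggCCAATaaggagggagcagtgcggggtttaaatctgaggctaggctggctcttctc
CKAP2, chr13:52455863-52455987, plus strand: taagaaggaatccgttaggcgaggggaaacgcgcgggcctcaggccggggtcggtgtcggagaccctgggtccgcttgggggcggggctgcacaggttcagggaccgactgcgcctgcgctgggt

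A CHR was present in 33 of the 51 promoters (64.7%) and in 16.4% of all 35116 promoters. By gene, 30 of 39 mitotic genes (76.9%) had at least 1 promoter with a CHR, beside 17.4% of the 14239 measured genes with a promoter. In the printed promoters the CHR began 23 bases before the start in BUB1B, 29 in CCNB2 and PLK1, 30 in CDC25C and 35 in NCAPG. Within 50 bases of the start on either side, a window chosen after these positions were seen, 26 of the 39 genes (66.7%) had a CHR, beside 5.31% of measured genes. A CCAAT box was present in 35 of the 51 promoters (68.6%) and in 34.6% of all promoters. By gene it was present in 30 of 39 (76.9%), beside 42.2% of measured genes. An E2F site, counted as TTTCGCGC, TTTGGCGC or TTTCCCGC on either strand, was present in 4 of the 51 (7.84%) and in 2.74% of all promoters. By gene it was present in 3 of 39 (7.69%), beside 4.61% of measured genes. The looser form TTTAAA, the same on both strands, was present in 14 of the 51 (27.5%), CCNB1 among them, and in 12.2% of all promoters.

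Genes that fell were found both with and without a CHR in the letters TTTGAA or TTCGAA. Of 29 measured genes with a CHR 16 fell, with a median difference of -0.41, and of 9 without one 5 fell, with a median of -0.48. The 9 were CCNA2, CCNB1, NEK2, AURKB, PTTG1, CENPE, SPC24, NCAPH and CKAP2. Among them CCNB1, PTTG1, CENPE and NCAPH had the looser form TTTAAA, and of these PTTG1 and NCAPH fell. CCNA2, NEK2 and SPC24 fell and had neither form. With the CHR within 50 bases of the start, 15 of 25 genes with it fell (median -0.41) and 6 of 13 without it (median -0.28). For the CCAAT box the counts were 17 of 29 genes with it (median -0.41) and 4 of 9 without it (median -0.47). A match is a string of letters and shows no binding.

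The 7 genes of entry into mitosis had a median of -0.46, and 4 of them fell. CCNA2, the cyclin of S phase and early mitosis, stood at 10.56 and 10.45 on the control arrays and at 9.78, 9.50 and 9.76 on the SB216763 arrays. All treated values were well below both controls, a difference of -0.82 (SE 0.11, adjusted p = 0.00356 by limma). CDC25C, a phosphatase that activates CDK1, went from 7.82 and 7.67 to 7.15, 7.20 and 7.28, a difference of -0.53 (SE 0.09, adjusted p = 0.00809). FOXM1, the transcription factor of late cell cycle genes, was even within groups, at 9.482 and 9.504 against 9.071, 9.005 and 9.021. Its difference was -0.46 (SE 0.07, adjusted p = 0.00830). CCNB2, a B-type cyclin, fell by 0.41 (SE 0.11, adjusted p = 0.0449), a call lost without SB216763 replicate 1 (adjusted p = 0.150) and without replicate 2 (0.0710).

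CCNB1, the main cyclin partner of CDK1 in mitosis, stood at 10.88 and 10.92 on the control arrays and at 10.70, 10.47 and 10.74 on the SB216763 arrays. The groups did not overlap, but its difference of -0.27 (95% interval -0.50 to -0.03) did not pass (adjusted p = 0.135). CDK1, the kinase itself, stood at 8.48 and 8.74 against 8.19, 7.91 and 8.31, with spread in both groups. Its difference of -0.47 (SE 0.13) had an adjusted p of 0.0596 and passed in 6 of the 13 other settings, the array-level rescalings among them. CDC25B, the phosphatase that starts CDK1 activation at centrosomes, was level, at 8.41 and 8.31 against 8.34, 8.43 and 8.50. Its difference was 0.06 (95% interval -0.14 to 0.26), and -0.01 with array weights.

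The 10 genes of spindle kinases and spindle assembly had a median of -0.30, and 3 of them fell. NEK2, a kinase that separates the centrosomes, went from 8.48 and 8.38 to 7.86, 7.91 and 8.08, a difference of -0.48 (SE 0.09, adjusted p = 0.0157). GTSE1, a microtubule-binding protein, went from 8.84 and 8.85 to 8.48, 8.43 and 8.60, a difference of -0.34 (SE 0.08, adjusted p = 0.0348). ASPM, a protein of the spindle poles, went from 9.27 and 9.35 to 8.93, 8.74 and 9.03, a difference of -0.41 (SE 0.10, adjusted p = 0.0387). In all 3 genes the groups did not overlap, and all 3 calls were lost without SB216763 replicate 1, with adjusted p of 0.0753, 0.140 and 0.113.

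AURKA, the kinase of spindle poles, stood at 9.57 and 9.65 against 9.32, 9.05 and 9.39. Its treated arrays were all lower, replicate 2 the most, and the difference of -0.36 (SE 0.11) had an adjusted p of 0.0788, passing in 4 of the 13 other settings. Its activator TPX2 differed by -0.29 (SE 0.09, adjusted p = 0.0914). PLK1, which acts from centrosome maturation to cytokinesis, stood at 10.66 and 10.79 against 10.62, 10.53 and 10.60. Here the lowest control and the highest treated value were close together, and the 95% interval of -0.33 to 0.06 around -0.14 reaches down to a decrease of 1.26-fold. The spindle proteins HMMR, DLGAP5 and NUSAP1 differed by -0.32, -0.28 and -0.16, with adjusted p of 0.170, 0.120 and 0.386. CKAP2, a microtubule-stabilising protein, was the 1 gene of the 46 with all treated arrays above both controls, at 9.65 and 9.71 against 9.92, 9.81 and 10.00. Its difference of 0.23 (SE 0.09) did not pass (adjusted p = 0.136), and was higher at an adjusted p of 0.0325 with array weights, the range over the 13 settings being 0.0325 to 0.421.

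Of the 4 genes of the chromosomal passenger complex, which corrects faulty attachments, 1 fell, with a median of -0.25. CDCA8, which encodes borealin, went from 8.99 and 8.92 to 8.67, 8.54 and 8.66, a difference of -0.33 (SE 0.08, adjusted p = 0.0400). That call was lost without any one of the 3 treated arrays, with adjusted p of 0.116, 0.0508 and 0.0765 for replicates 1, 2 and 3. AURKB, the kinase of the complex, stood at 9.34 and 9.28 against 9.13, 9.20 and 9.18. The groups lay close without overlapping, and the difference was -0.14 (95% interval -0.32 to 0.04, adjusted p = 0.308). INCENP, its scaffold, stood at 9.05 and 9.09 against 8.80, 8.71 and 8.91, a difference of -0.26 (adjusted p = 0.101). BIRC5, which encodes survivin, stood at 9.19 and 9.28 against 8.90, 9.02 and 9.07, a difference of -0.24 (adjusted p = 0.125). The second BIRC5 probe was at 5.29 to 5.67, not above background, and carries little information.

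Of the 5 genes of the spindle assembly checkpoint, 3 fell, with a median of -0.59. MAD2L1, which encodes the MAD2 protein that sequesters CDC20, went from 9.31 and 9.50 to 8.62, 8.40 and 8.63. Its difference of -0.85 (SE 0.10, adjusted p = 0.00282) was the largest decrease of the 46 genes, except without control replicate 2, where CCNA2 (-0.88) was below MAD2L1 (-0.76). BUB1B, which encodes BUBR1, the partner of MAD2 in holding CDC20, went from 9.93 and 9.90 to 9.22, 9.13 and 9.30. The control arrays were nearly equal and the difference was -0.70 (SE 0.08, adjusted p = 0.00270). BUB1, a kinase that recruits other checkpoint proteins to kinetochores, went from 10.50 and 10.45 to 9.91, 9.80 and 9.94, a difference of -0.59 (SE 0.08, adjusted p = 0.00434).

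The kinase TTK, at the top of the checkpoint, differed by -0.53 (SE 0.14, adjusted p = 0.0508). It passed without SB216763 replicate 2 (adjusted p = 0.0325), on which it stood at 7.70 while the other treated arrays were at 8.13 and 8.15. BUB3, which carries BUB1 and BUBR1 to kinetochores, stood at 11.47 and 11.61 against 11.22, 11.02 and 11.32. All treated arrays were lower, and the difference of -0.35 (SE 0.11) had an adjusted p of 0.0720. TTK and BUB3 both passed after quantile normalization, with arrays centred, with the filter on dim genes, with a variance trend and with array weights, so that all 5 checkpoint genes were lower there. More of all genes were lower there too. With the filter it was 1398 of 12856, and in the other settings 1388 to 2152 of 18417, against 1090 of 18417 as reported.

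Of the 4 genes of the APC/C and sister separation, 2 fell, with a median of -0.30. PTTG1, which encodes securin, the inhibitor of separase, went from 9.03 and 8.92 to 8.30, 8.30 and 8.35. The treated arrays lay within a narrow range, and the difference was -0.66 (SE 0.08, adjusted p = 0.00263), the smallest adjusted p of the 46 genes. ESPL1, separase itself, went from 8.65 and 8.72 to 8.39, 8.42 and 8.27, a difference of -0.33 (SE 0.08, adjusted p = 0.0418). The ESPL1 call was lost without SB216763 replicate 1 (0.129) and replicate 3 (0.110). CDC20, the activator of the APC/C, stood at 10.16 and 10.08 against 9.96, 9.84 and 9.71, a difference of -0.28 (SE 0.10, adjusted p = 0.0981). UBE2C, its ubiquitin-conjugating enzyme, differed by -0.12 (95% interval -0.32 to 0.07, adjusted p = 0.427).

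The 6 measured kinetochore and centromere genes had a median of -0.55, and 3 of them fell. The 3 that fell encode subunits of the NDC80 complex, which holds the microtubule end. SPC24 went from 8.93 and 9.08 to 8.24, 8.05 and 8.46, a difference of -0.76 (SE 0.12, adjusted p = 0.00862). NUF2 went from 9.17 and 9.22 to 8.58, 8.42 and 8.67, a difference of -0.63 (SE 0.10, adjusted p = 0.00611). SPC25 went from 8.42 and 8.60 to 8.06, 7.69 and 7.90, a difference of -0.63 (SE 0.12, adjusted p = 0.0151). In all 3 the groups were apart, with the lowest value on SB216763 replicate 2. The remaining subunit, NDC80, differed by -0.47, and its wide spread (SD 0.18 in controls and 0.29 in treated arrays) left an adjusted p of 0.113. It was 0.0474 without SB216763 replicate 3.

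CENPF, a large protein of the outer kinetochore, differed by -0.28 (SE 0.11, adjusted p = 0.155). CENPE, a kinetochore motor, had overlapping groups, at 7.66 and 7.86 against 7.98, 7.59 and 8.10, and a difference of 0.13 (95% interval -0.22 to 0.49). The probe shared by CENPA, the histone variant of centromeres, and SLC35F6 stood at 9.41 and 9.59 against 9.17, 9.11 and 9.14. Which of these genes it measured is not known, and it was not part of the test.

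Of the 6 genes of condensin and the chromosome axis, 4 fell, with a median of -0.47. SMC2, the ATPase common to both condensins, went from 9.52 and 9.57 to 8.99, 8.71 and 9.03, a difference of -0.64 (SE 0.11, adjusted p = 0.0105). NCAPG, a subunit of condensin I, went from 10.53 and 10.62 to 10.03, 9.78 and 10.10, a difference of -0.61 (SE 0.11, adjusted p = 0.0118). NCAPH, which closes the condensin I ring, went from 9.17 and 9.33 to 8.71, 8.76 and 8.72, a difference of -0.52 (SE 0.08, adjusted p = 0.00780). The treated arrays of these 3 genes lay below both controls by more than the range within either group. SMC4, the ATPase partner of SMC2, differed by -0.24 (95% interval -0.56 to 0.08, adjusted p = 0.330). It stood at 10.34 on SB216763 replicate 2 and at 10.72 and 10.76 on the others, close to the controls at 10.77 and 10.92.

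MKI67, the proliferation marker that coats mitotic chromosomes, went from 10.79 and 10.83 to 10.43, 10.33 and 10.45. The groups were apart, with a difference of -0.41 (SE 0.08, adjusted p = 0.0156), or 1.33-fold lower, a call lost without SB216763 replicate 1 (0.0677). TOP2A, the topoisomerase that untangles sister chromatids, stood at 11.01 and 11.11 against 10.79, 10.65 and 10.89. Its difference of -0.28 (SE 0.09) had an adjusted p of 0.0945.

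Of the 4 cytokinesis genes, 2 fell, with a median of -0.43. PRC1, which bundles the microtubules of the spindle midzone, went from 10.50 and 10.65 to 10.10, 9.99 and 10.04, a difference of -0.53 (SE 0.08, adjusted p = 0.00749). ECT2, which switches on RhoA at the division site, went from 8.93 and 8.88 to 8.40, 8.27 and 8.48, a difference of -0.52 (SE 0.09, adjusted p = 0.00989). Both genes had treated arrays clearly below the controls. RACGAP1, which recruits ECT2, stood at 9.97 and 10.16 against 9.77, 9.64 and 9.80, a difference of -0.33 (adjusted p = 0.0621). ANLN, the scaffold of the contractile ring, differed by -0.34 (adjusted p = 0.0770). Both were lower at adjusted p of 0.0171 to 0.0484 in 5 other settings, among them quantile normalization and centring.

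Other genes of the same machinery, in lists that hold none of the 47, were read beside them. Of 29 other kinetochore and centromere genes 12 fell and 0 rose, with a median of -0.33. CENPM and CENPK, of the inner kinetochore, fell by 0.74 (SE 0.08) and 0.80 (SE 0.12), CENPH, of the same network, by 0.73 (SE 0.11), and ZWINT, of the outer kinetochore, by 0.70 (SE 0.10). CENPH was above background on 4 of the 5 arrays. Of 19 other condensin and cohesin genes 7 fell and 0 rose, with a median of -0.33, among them the condensin II subunit NCAPD3 by 0.77 (SE 0.08) and the cohesin acetyltransferase ESCO2 by 0.77 (SE 0.12). SMC1A, a cohesin ATPase, fell by 0.46 (SE 0.09), and CDCA5, which encodes the cohesin protector sororin, by 0.40 (SE 0.08).

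Of 28 other regulators of mitotic entry, exit and the spindle, 12 fell and 0 rose, with a median of -0.28. CKS1B, a CDK-binding subunit, fell by 0.75 (SE 0.08), TRIP13, which dismantles checkpoint complexes, by 0.71 (SE 0.10), PKMYT1, which inhibits CDK1, by 0.62 (SE 0.09), and the spindle protein TACC3 by 0.52 (SE 0.08). Of the 6 genes of the MuvB core and B-MYB, MYBL2, which encodes B-MYB, fell by 0.77 (SE 0.08, adjusted p = 0.00187) and LIN9 by 0.39 (SE 0.09, adjusted p = 0.0276). LIN37, LIN54, RBBP4 and LIN52 differed by 0.19, -0.15, 0.11 and -0.02 and did not pass. For an S phase reference, all 7 genes of the MCM helicase and PCNA fell, with a median of -0.81, where the median of the mitotic genes was -0.36. Whether the lists differ was not tested. Without either control array limma called 0 genes in each of these 5 lists, and without SB216763 replicate 1 the first 4 lists had 7, 2, 6 and 1 lower. Without moderation the 5 lists had 0, 0, 1, 0 and 2 lower, and the condensin and cohesin list had 11 with the variance trend and with array weights.

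**Figure D3:**
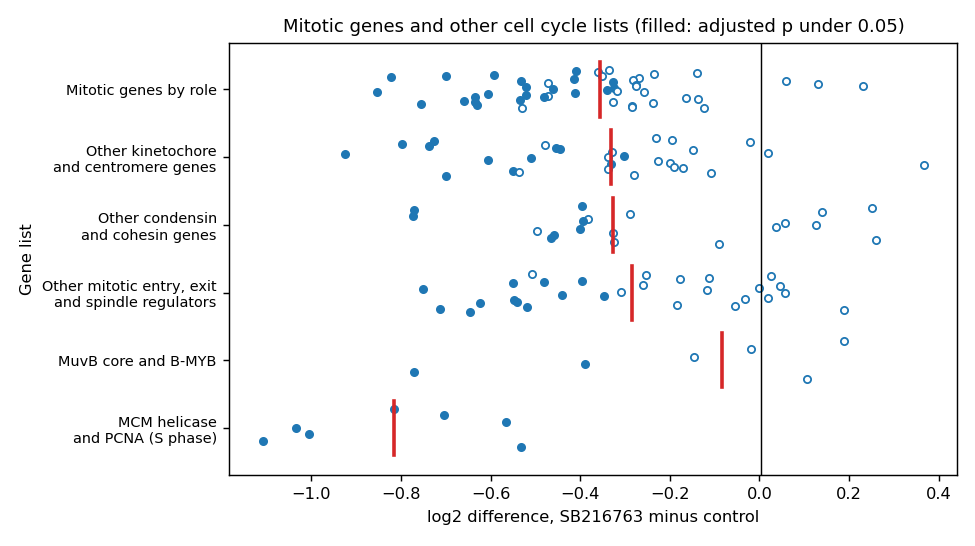
Log2 difference, SB216763 minus control, on the x axis for each gene (circles, filled where the adjusted p is under 0.05) of the 46 mitotic genes and of 5 other lists on the y axis; the vertical position within a list has no meaning. Red bars are medians, from -0.81 for the MCM helicase and PCNA to -0.08 for the MuvB core and B-MYB, and the black line is the median of all genes.

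**Figure D4:**
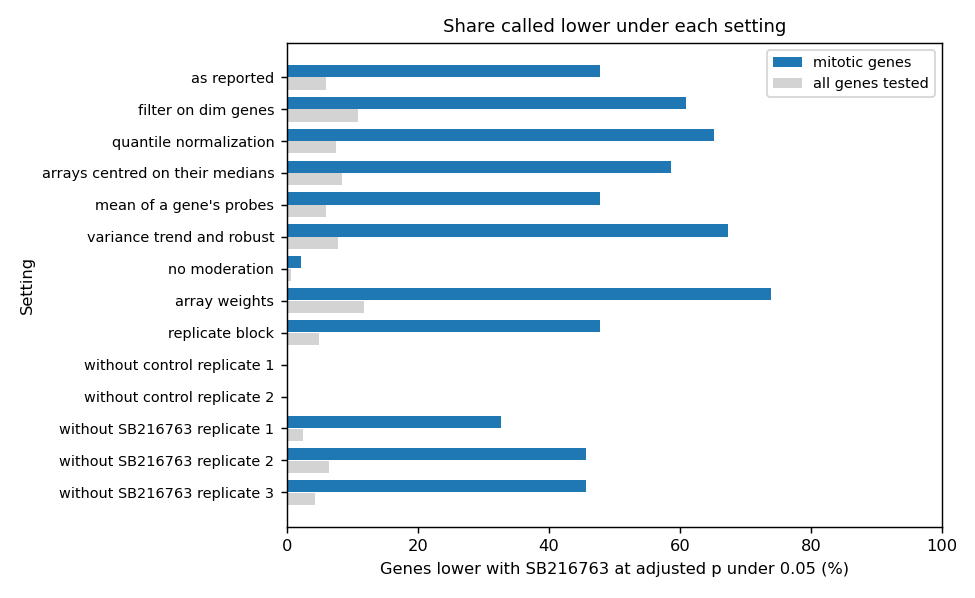
Share of the 46 mitotic genes (blue) and of all genes tested (grey) that were lower with SB216763 at an adjusted p under 0.05, in percent on the x axis, for each processing setting on the y axis. The number of mitotic genes lower was 22 as reported, 34 with array weights, 1 without moderation and 0 without either control array.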

How the data were processed

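Per the submitters' processing notes, the deposited values came from Affymetrix Expression Console. Its version, how probes were summarised, and the build used are facts not given in the sources used here. The authors deposited log2 expression values, 1 column per array; their scale was read from the values, which ran from 1.95 to 14.84. No further normalization was applied. Of 33297 probes, 19460 named 1 gene, 1754 several and 12083 none, by the platform annotation; 0 symbols needed updating against RefSeq. The probe with the highest mean stood for a gene, giving 18417 genes. An array's background was the 95th percentile over 341 olfactory receptor genes.

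Groups and replicate numbers came from the sample titles. Group means were compared in R 4.3.3 by limma 3.58.1 (eBayes, two-sided, 4.62 prior degrees of freedom), adjusted over all genes. The procedure was tested on simulated data. The mitotic genes, roles, lists and tests were chosen with earlier results of these data known. Values on every array are given for up to 3 genes a role with the smallest p and for CCNB1, CDK1, FOXM1, CDC25B, AURKA, AURKB, PLK1, BUB3, CDC20, TOP2A and MKI67, and, chosen after their values were seen, for CKAP2, CENPE and SMC4; of the other lists, up to 4 genes with the smallest p are named, and further genes were named after their values were seen. T and NK cell markers (3 of 10 above background on all arrays, NKG7 risen) and erythroid and megakaryocyte markers (3 of 8, 0 risen) were read too. Listed genes without a probe naming them alone were not analysed here. The 13 alternatives are a filter on dim genes, quantile normalization, centring, probe means, array weights, a robust variance trend, a fit without moderation, blocking on replicate number, and leaving out each array.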

Additional observations from a re-analysis of the deposited data

How the results depend on the processing

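The difference stayed negative for 43 of the 46 mitotic genes under each of the 13 alternatives except array weights, where it was negative for 44 because CDC25B turned to -0.011. The filter on dim genes, the variance trend and the fit without moderation cannot change these differences. Probe means can change that of BIRC5 alone, and the replicate block repeats the differences without SB216763 replicate 3. In these settings the count of negative differences is no separate check. Leaving out 1 array at a time gave 0 to 1680 genes higher and 0 to 1179 lower among all genes, and 0 to 21 mitotic genes lower, with 15 without SB216763 replicate 1. It gave 0 to 4 lower genes in entry into mitosis (median -0.50 to -0.36), 0 to 3 in the spindle group, 0 in the passenger complex, 0 to 4 in the checkpoint, 0 to 2 in the APC/C group, 0 to 4 in the kinetochore group, 0 to 4 in the condensin group (median -0.52 to -0.41) and 0 to 2 in cytokinesis. The passenger complex had 0 also without each of the 3 treated arrays, and the spindle group without SB216763 replicate 1. In the other groups of genes the lowest counts came only without a control array. The control group then has 1 array and is assumed to vary like the treated group. There limma called at most 1 gene of all.

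Without moderation, 126 genes were higher and 125 lower, and of the mitotic genes 1, FOXM1, was lower, so that entry into mitosis had 1 and every other role 0. With array weights 2568 genes were higher and 2152 lower, and 34 mitotic genes were lower and 1 higher, with 6 lower in the spindle group, 3 in the passenger complex, 5 in the checkpoint and 4 in cytokinesis. The checkpoint had 5 and cytokinesis 4 lower genes also with the filter on dim genes, quantile normalization, centring, and the variance trend. Among all genes 1388 to 1536 were lower in those 4 settings, against 1090 as reported. Quantile normalization gave 5 in the spindle group and 2 in the passenger complex, and the trend 5 in the spindle group. Centring moved the condensin median to -0.52. The cause of these changes was not tested.

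Same-numbered arrays did not deviate together (correlations of deviations -0.05 and -0.10), and the labels tie the numbers to nothing shared. SB216763 replicate 3 has no control array of its number, so under the replicate block it adds nothing to the differences. The block therefore repeats the differences without that array, with a median of -0.42 in both settings, and is no separate check of them. With the replicate block 22 mitotic genes were lower, beside 889 of all 18417 genes. Compared with the reported calls, CDK1, NDC80 and TTK were gained and CDCA8, ESPL1 and GTSE1 lost. The passenger complex then had 0 and the APC/C group 1. Genes near the array background have little signal to compare, and none of the 46 lay there.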
